A study of Rattus norvegicus with 4 samples.

Results

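Monoamines are the small signalling molecules made from aromatic amino acids, among them serotonin, dopamine, noradrenaline and adrenaline. The genes described here are 5 members of that system, chosen by name with earlier results of these data known. They were found on the array through the RefSeq accession of each probe. Tph1 and Ddc encode enzymes of synthesis, Maoa and Maob encode the enzymes of breakdown, and Htr2a encodes a serotonin receptor. All 5 were on the array, out of 26624 genes or unnamed accessions, and they were read by 7 probes. Of the 5, 4 were well above background on at least 2 of the 4 arrays and entered the tests.

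RNA came from skeletal muscle of males at 15 weeks of age. One-colour arrays read 1 exercised SPORTS sample, 1 sedentary SPORTS sample and 2 wild-type (WT) samples, which the design text calls sedentary. SPORTS is a hyperactive mutant rat on a Wistar background, and the WT rats were Wistar too. The labels name neither the muscle, the kind of exercise nor the mutated gene, and leave it unsaid if both WT arrays stem from 1 animal. The p-values therefore rest on a spread among arrays that may be only technical, and precision is limited by having 4 arrays.

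Tryptophan hydroxylase 1, the product of Tph1, carries out the rate-limiting step of serotonin synthesis outside the brain, and the decarboxylase encoded by Ddc makes both serotonin and dopamine from their precursors. The monoamine oxidases sit in the outer mitochondrial membrane and remove the amine group. The A form prefers serotonin and noradrenaline, and the B form prefers phenylethylamine. In muscle, noradrenaline comes from sympathetic nerve endings around blood vessels, adrenaline arrives with the blood, and serotonin is stored by platelets and, in rodents, by mast cells. SPORTS rats have been studied for low monoamine oxidase A in the brain.

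By the probe used for each gene, Tph1, Ddc, Maoa and Maob stood higher on both SPORTS arrays than on either WT array. The same held for 21.4% of all genes tested. RefSeq promoter windows of the 4 genes are shown here as context. Each window of assembly GRCr8 runs from 250 bases before to 50 bases after the annotated gene start, 5′ to 3′ on the gene's strand, and capitals mark matches to any of 5 short motifs on either strand. The motifs were GGGCGG (the GC box), TATAAA (the TATA box), CCAAT (the CCAAT box), CACGTG (the E-box) and TGACG (the core of the cAMP response element). Maoa lies at chrX:8681323-8681622 (minus strand) and Maob at chrX:8490155-8490454 (plus strand), on the same chromosome. Tph1 lies at chr1:106314579-106314878 (minus strand). Ddc has 3 windows, of which the most upstream one, at chr14:90682734-90683033 (minus strand), is printed.
Maoa: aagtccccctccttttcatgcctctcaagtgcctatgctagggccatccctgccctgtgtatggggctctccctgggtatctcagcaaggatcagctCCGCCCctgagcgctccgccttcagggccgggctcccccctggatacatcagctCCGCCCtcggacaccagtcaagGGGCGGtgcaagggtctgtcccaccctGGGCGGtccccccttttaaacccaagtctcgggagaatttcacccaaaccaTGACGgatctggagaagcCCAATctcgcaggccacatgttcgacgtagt
Maob: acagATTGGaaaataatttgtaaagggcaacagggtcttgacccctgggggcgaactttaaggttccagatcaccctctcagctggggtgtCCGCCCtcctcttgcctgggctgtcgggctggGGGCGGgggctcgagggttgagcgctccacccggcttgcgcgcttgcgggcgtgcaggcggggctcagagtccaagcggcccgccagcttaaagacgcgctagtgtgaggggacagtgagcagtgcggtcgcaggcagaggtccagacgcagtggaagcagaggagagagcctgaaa
Tph1: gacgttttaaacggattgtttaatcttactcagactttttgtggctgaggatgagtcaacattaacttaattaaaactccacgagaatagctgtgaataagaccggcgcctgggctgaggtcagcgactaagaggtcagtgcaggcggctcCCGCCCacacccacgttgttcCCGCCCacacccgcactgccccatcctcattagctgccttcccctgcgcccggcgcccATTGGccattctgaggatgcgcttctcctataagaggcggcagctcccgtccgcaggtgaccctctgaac
Ddc: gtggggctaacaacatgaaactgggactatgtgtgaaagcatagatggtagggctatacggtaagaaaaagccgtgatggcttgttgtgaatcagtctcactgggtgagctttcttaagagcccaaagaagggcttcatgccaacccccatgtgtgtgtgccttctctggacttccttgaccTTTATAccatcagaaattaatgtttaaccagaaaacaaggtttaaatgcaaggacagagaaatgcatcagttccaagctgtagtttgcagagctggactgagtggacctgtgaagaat

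The Maoa window held 4 GC boxes and those of Maob and Tph1 held 2 each, where 33.1% of 33469 windows of this length held at least 1. No share of windows with 2 or 4 was counted. G and C made up 61%, 63% and 55.7% of the Maoa, Maob and Tph1 windows, against a median of 51.7%. None of the 3 Ddc windows held a GC box. The printed Ddc window held 1 match to the TATA box letters, on the strand opposite to the gene and starting at base -68 from the gene start. On either strand, these letters were found in 14.2% of all windows and in none of the other windows of these genes. The letters CCAAT stood once each in the windows of Maoa, Maob and Tph1 and in the second Ddc window (37.5% of all windows). TGACG stood once, in Maoa (21.2%). The CCAAT and TGACG matches in Maoa start at bases 20 and 2 from the gene start. Both lie after that start and not upstream of it. The E-box stood in none of the 6 windows (6.42%). A match describes these letters and does not show that a factor binds there.

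Levels below are log2 of the background-subtracted spot signal minus the 75th percentile of that array, so 0 is that percentile, and levels of different probes are not set against each other. A difference is between such levels, and ± after it is the standard error of the fit. The 75th percentile itself was a signal of 864 on the exercised SPORTS array, 1111 on the sedentary SPORTS array, and 1096 and 1082 on the WT arrays. The exercised array also had the fewest probes well above background, 46.0%, against 50.3% on the sedentary SPORTS array and 48.7% and 48.9% on the WT arrays.

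Before the members, the arrays have to be placed by their muscle markers, since they differed widely in fibre type. All 6 general muscle fibre markers found were well above background on every array. The summed level of 9 fast fibre markers, on the linear scale, was 2680 in exercised SPORTS and 280.0 in sedentary SPORTS muscle, against 875 and 888 on the WT arrays. That of 10 slow fibre markers was 447 in exercised SPORTS and 1960 in sedentary SPORTS muscle, against 2090 and 2040 on the WT arrays. The SPORTS arrays thus lay on opposite sides of WT in fast fibre markers, and the exercised array was lowest in slow fibre markers. The part of fibre type in the members' differences was not tested. With 1 array each, exercised and sedentary SPORTS cannot be told apart from the individual muscle samples. In whole muscle, fewer cells of a type and less RNA per cell cannot be told apart either.

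**Figure D1:**
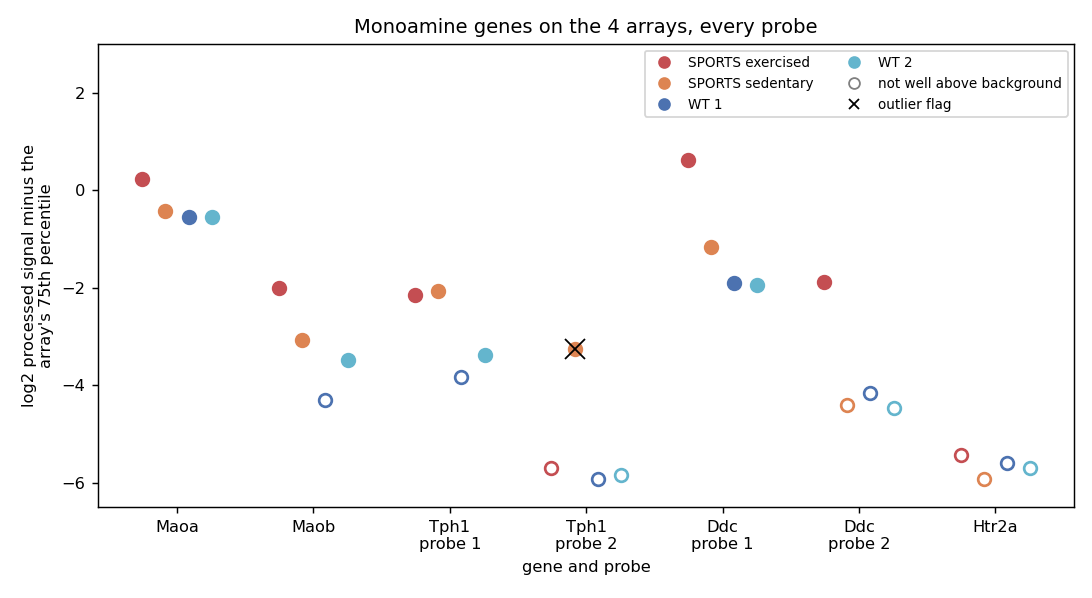
Level of every probe of the 5 genes (y axis, log2 level as defined above) on the exercised SPORTS, sedentary SPORTS and 2 WT arrays. Open circles are not well above background, and the cross marks the spot with an outlier flag. The SPORTS arrays lie above both WT arrays for Maoa, Maob, the first Tph1 probe and the first Ddc probe, and Htr2a is open on all 4.

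In the 3-group fit used below for each SPORTS array, the error comes from the 2 WT arrays (1 residual degree of freedom, moderated over genes), and each lone SPORTS array is assumed to vary like them. It is not a test against the spread among SPORTS rats, and 53.3% of the 13326 genes tested were called on the exercised SPORTS array.

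Ddc was higher than WT on both SPORTS arrays by its first probe, and more so on the exercised one. Its first probe had a level of 0.63 in exercised SPORTS and -1.17 in sedentary SPORTS muscle, against -1.91 and -1.94 on the WT arrays, and was well above background on all 4. The SPORTS arrays did not overlap with the WT arrays, which were 0.02 apart. Ddc rose by 2.55 ± 0.06 on the exercised SPORTS array against WT, or 5.85-fold (adjusted p = 0.00424, limma, 3 groups). Ddc also rose on the sedentary SPORTS array, by 0.76 ± 0.06 or 1.69-fold (adjusted p = 0.0427), a call lost with no filter on dim genes (adjusted p = 0.101). In the pooled comparison of 2 SPORTS with 2 WT arrays, whose spread includes that between the SPORTS arrays, Ddc differed by 1.65 ± 0.69 and was not called (adjusted p = 0.742, limma). The exercised array stood 1.79 above the sedentary SPORTS array, a gap wider than the 0.76 between the sedentary array and WT.

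The second Ddc probe, which carries the same accession, separated the arrays in another way. It had a level of -1.88 in exercised SPORTS and -4.41 in sedentary SPORTS muscle, against -4.16 and -4.46 on the WT arrays, and was well above background on the exercised array alone. That probe was at least 3.35-fold higher on the exercised array than on the WT arrays, and at least 3.78-fold higher than on the sedentary SPORTS array. A bound of this kind sets the brighter value against the dim array's own value or its lowest signal well above background, whichever is higher. The sedentary array and WT cannot be compared by that probe, so the smaller rise of Ddc on the sedentary SPORTS array rests on 1 probe.

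Tph1 was the member with the closest values on the SPORTS arrays, both of them above WT. Its first probe had a level of -2.14 in exercised SPORTS and -2.07 in sedentary SPORTS muscle, against -3.83 and -3.37 on the WT arrays. The lower WT value, on WT array 1, was not well above background, while the other 3 were. The SPORTS arrays lay 0.07 apart and both stood at least 1.22 above the higher WT array. That WT value was itself close to the lowest level well above background on its array, -3.60. Tph1 rose by 1.45 ± 0.25 on the exercised SPORTS array, or 2.74-fold (adjusted p = 0.0282, limma, 3 groups). Sedentary SPORTS muscle differed from WT by 1.53 ± 0.25 in Tph1, or 2.88-fold, and missed the threshold (adjusted p = 0.0671). With normexp background correction the Tph1 differences were 0.91 on the exercised and 0.85 on the sedentary array, and with no filter on dim genes the exercised call was lost (adjusted p = 0.0748). Over both SPORTS arrays the difference was 1.49 ± 0.22 (unadjusted p = 0.00418, adjusted p = 0.387, limma).

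The second Tph1 probe gave no usable comparison. It was not well above background on the exercised SPORTS array, with a level of -5.70, nor on the WT arrays, at -5.91 and -5.83. On the sedentary SPORTS array it read -3.26, but that spot had an outlier flag for uneven brightness, so the probe was left out of the fit. Serotonin synthesis in muscle tissue is a property of mast cells among others, so their markers are given beside Tph1. Of 10 mast cell markers on the array, 2 were well above background in exercised SPORTS and 7 in sedentary SPORTS muscle, against 6 on each WT array, and Ms4a2, Fcer1a and Kit were so on none. Their summed level was 0.822 in exercised SPORTS and 3.38 in sedentary SPORTS muscle, against 1.85 and 1.87 on the WT arrays. Such a sum, on the linear scale, follows its brightest marker, Cma1 on the sedentary array, where Hdc and Tpsab1 stood below WT. The median difference from WT over the 6 markers tested was -1.69 in exercised SPORTS and 0.52 in sedentary SPORTS muscle. The part of mast cells in the Tph1 levels was not tested. Of 5 platelet markers, Gp9 and Ppbp were well above background on no array. The sum of the 5 was 0.868 in exercised SPORTS and 2.37 in sedentary SPORTS muscle, against 1.38 and 1.26 on the WT arrays. Pf4 was the brightest on the sedentary array. The median difference from WT over the 3 tested was -0.80 in exercised SPORTS and 0.16 in sedentary SPORTS muscle. The part of platelets in the Tph1 levels was not tested.

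Maob, the B form of the oxidase, was dim and its WT values were the farthest apart of the members tested. The probe had a level of -2.01 in exercised SPORTS and -3.07 in sedentary SPORTS muscle, against -4.30 and -3.49 on the WT arrays. Of the WT arrays 1 of 2 measured it well above background, as did both SPORTS arrays. The groups did not overlap, but the sedentary array stood 0.42 above the higher WT array while the WT arrays were 0.81 apart. Only 1.69% of all genes tested had a wider gap between the WT arrays. Maob rose by 1.88 ± 0.42 on the exercised SPORTS array, or 3.69-fold over a WT mean that includes the value not well above background (adjusted p = 0.0471, limma, 3 groups). That difference was 1.18 with normexp and 1.55 with dim values set to a floor, and the call was lost with no filter on dim genes (adjusted p = 0.113). The sedentary SPORTS difference of Maob was 0.83 ± 0.42 (adjusted p = 0.272), and over both it was 1.36 ± 0.52 (adjusted p = 0.720). The sedentary value was 0.42 without WT array 1 and 1.23 without WT array 2, and with normexp it was 0.36 and the pooled one 0.77.

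Maoa, the A form, had the smallest differences from WT of the 4 genes tested and the closest WT values. Its probe had a level of 0.23 in exercised SPORTS and -0.43 in sedentary SPORTS muscle, against -0.54 on both WT arrays, and was well above background on all 4. The sedentary SPORTS array lay 0.10 above the higher WT array, and the WT arrays differed by 0.01. Before scaling, the signals were 1012 in exercised SPORTS and 824 in sedentary SPORTS muscle, against 756 and 742 on the WT arrays, in the same order. On the exercised SPORTS array Maoa rose by 0.77 ± 0.06, or 1.70-fold (adjusted p = 0.00855, limma, 3 groups). The sedentary SPORTS difference of Maoa was 0.11 ± 0.06, or 1.08-fold (adjusted p = 0.309), and turned to -0.02 with normexp background correction.

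Htr2a, the 2A serotonin receptor, which also signals in smooth muscle, was not well above background on any array. Its probe read -5.43 in exercised SPORTS and -5.93 in sedentary SPORTS muscle, against -5.60 and -5.69 on the WT arrays. The SPORTS values lay on either side of the WT values, and no fold is given.

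Read against all genes, the members' calls carry different weight in each comparison. The members were chosen with earlier results of these data known, so the shares below describe them and do not test the set. On the exercised SPORTS array all 4 members tested were called higher than WT, where 27.3% of all genes tested were called higher. On the sedentary SPORTS array 1 of 4 members, Ddc, was called, against 6.27% of all genes. In SPORTS against WT limma called none of the 4 and 0 of all genes (0%), with 982 genes at an unadjusted p under 0.05, of which Tph1 was the 1 member. With 2 arrays against 2 an exact permutation test of a single value cannot go below a two-sided p of 0.333. Both SPORTS arrays lay above both WT arrays for all 4 members tested and for 21.4% of all genes.

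By signed difference, the members ranked differently on the SPORTS arrays. On the exercised array, the share of all genes tested with a more positive difference from WT was 0.953% for Ddc and 2.41% for Maob. It was 4.42% for Tph1 and 12.7% for Maoa. On the sedentary SPORTS array the shares were 0.893% for Tph1, 4.15% for Maob, 4.90% for Ddc and 34.0% for Maoa. These shares leave out falls, however large. They use the WT means with the dim values of Tph1 and Maob in them. The order of Maob over Ddc on the sedentary array (0.83 and 0.76) turned with a floor on dim values (0.50 and 0.76), with normexp (0.36 and 0.64) and without WT array 1 (0.42 and 0.77). The median difference over the 4 members was 1.67 in exercised SPORTS and 0.79 in sedentary SPORTS muscle, where the medians over all genes tested were 0.00 and -0.01.

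**Figure D2:**
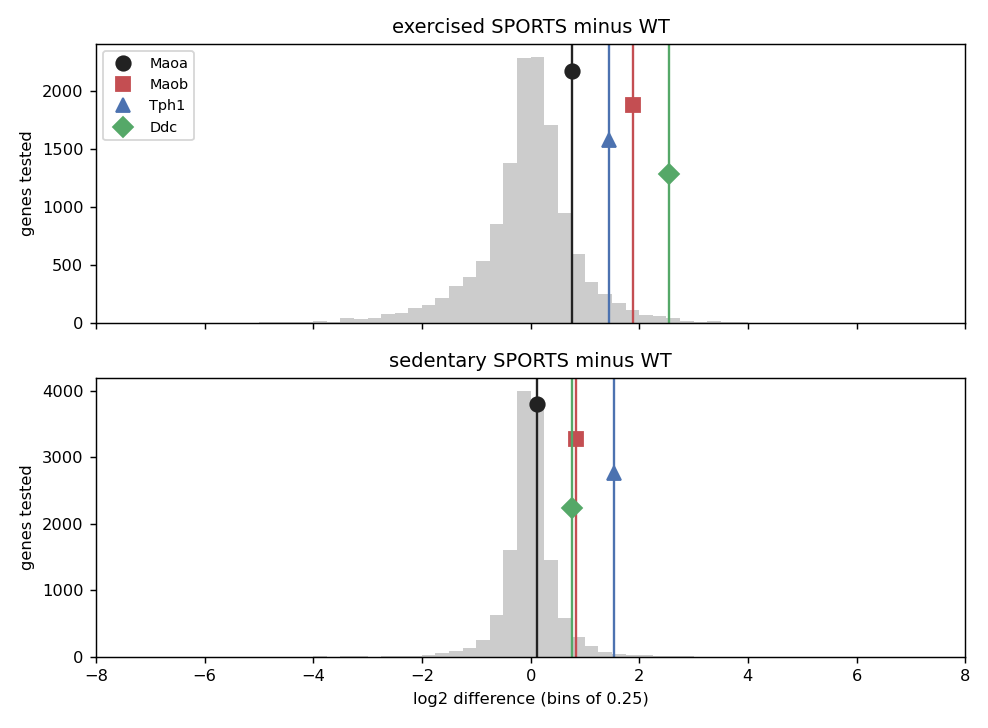
Number of genes tested (y axis) by log2 difference from the WT mean (x axis, bins of 0.25), for the exercised SPORTS array above and the sedentary SPORTS array below, with the 4 members tested as coloured lines. The 4 gene values beyond 8 are not drawn. Ddc is the member farthest right on the exercised array, Tph1 on the sedentary one, and Maoa lies within the bulk of the genes on the sedentary one.

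The exercised and sedentary SPORTS arrays were also set against each other, without a test since each condition has 1 array. Ddc was 3.46-fold and Maob 2.08-fold higher on the exercised array, so 2 of 4 members were at least 2-fold higher and none lower, against 9.11% of all genes higher and 21.9% in either direction. Maoa differed by 0.66 and Tph1 by -0.07. For scale, 1.13% of all genes were 2-fold apart between the WT arrays, and none of the members was.

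The genes around the members came from 6 lists of the monoamine pathway with 55 further genes, all on the array, of which 24 could be tested. Of these, Gch1 passed the filter through the SPORTS arrays alone and was left out of the counts after its values were seen. Of the remaining 23, 4 rose and 9 fell on the exercised SPORTS array, where 27.3% of all genes were called higher and 26.0% lower, and their median difference was -0.14. On the sedentary SPORTS array 1 rose and 2 fell, against 6.27% of all genes called in either direction, with a median of -0.03. None passed in SPORTS against WT. Both SPORTS arrays lay above both WT arrays for 5 of the 23 and below them for 8, against 21.4% and 22.3% of all genes.

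In synthesis, 10 of 12 genes could be tested. Their differences from WT on the exercised array went both ways, with a median of 0.34 when Gch1 is included. Genes for the pterin cofactor of the hydroxylases did not move as 1 group. Pcbd1, which encodes the dehydratase that recycles this cofactor, had levels of 1.23 in exercised SPORTS and -0.62 in sedentary SPORTS muscle, against -1.17 and -1.16 on the WT arrays. It rose by 2.40 ± 0.06 on the exercised array (adjusted p = 0.00424), and its second probe differed there by 2.24. Its sedentary SPORTS difference was 0.55 (adjusted p = 0.0520). Gch1, encoding GTP cyclohydrolase 1, the first enzyme of cofactor synthesis, had levels of -3.35 in exercised SPORTS and -2.12 in sedentary SPORTS muscle, against -4.13 on both WT arrays, where it was not well above background. It was at least 1.20-fold higher in exercised SPORTS and at least 2.82-fold higher in sedentary SPORTS muscle. Since Gch1 passed the filter through the SPORTS arrays alone, its direction was fixed by that filter and no p is given. Spr, encoding sepiapterin reductase of the same cofactor route, fell by 0.66 on the exercised array (adjusted p = 0.0106). Pts and Qdpr, which encode its other enzymes, passed in neither comparison (adjusted p = 0.113 and 0.0817 on the exercised array).

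Among the genes leading to noradrenaline and adrenaline, none of Th, Dbh and Pnmt was called higher on either SPORTS array. Th, encoding tyrosine hydroxylase, had levels of -1.09 in exercised SPORTS and -1.51 in sedentary SPORTS muscle, against -1.35 and -1.61 on the WT arrays, so the groups overlapped (adjusted p = 0.122 and 0.891 for the exercised and the sedentary array). Dbh, which encodes the enzyme that turns dopamine into noradrenaline, and Tph2, the hydroxylase gene of neurons, were not well above background on any array. Pnmt, the gene of the enzyme that makes adrenaline, fell by 0.72 on the exercised array (adjusted p = 0.00989). Hdc, which encodes the enzyme of histamine synthesis and also stands in the mast cell list, was not well above background on the exercised array and was at least 1.94-fold lower there than in WT (adjusted p = 0.00424). Hdc also fell on the sedentary SPORTS array, with a level of -3.48, against -2.47 and -2.49 on the WT arrays (adjusted p = 0.0383).

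In breakdown, 10 of 11 genes could be tested. Of the dehydrogenase and reductase genes that act on the aldehydes left by the oxidases, Aldh2, Aldh3a2, Akr1a1 and Akr1b1 were not called on either array. Aldh1a1 of the same group fell by 0.69 on the exercised array (adjusted p = 0.0113). Aoc3, encoding a copper amine oxidase of vessels and fat, fell there by 0.71 (adjusted p = 0.00986).

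Most receptors and carriers were too dim to compare. None of the 5 dopamine receptor genes could be tested. Of 14 serotonin receptor genes 1 could, Htr2b, which was well above background on 1 SPORTS and 1 WT array (adjusted p = 0.17 on the exercised array). Of 9 adrenergic receptor genes, 6 were not well above background on any array, and 3 were on all 4. Adra2b, an alpha 2 receptor gene, rose by 1.09 ± 0.06 on the exercised array (adjusted p = 0.00592) and differed by -0.14 on the sedentary one. Adra1d, an alpha 1 receptor gene, fell by 0.63 on the exercised array (adjusted p = 0.0137).

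**Figure D3:**
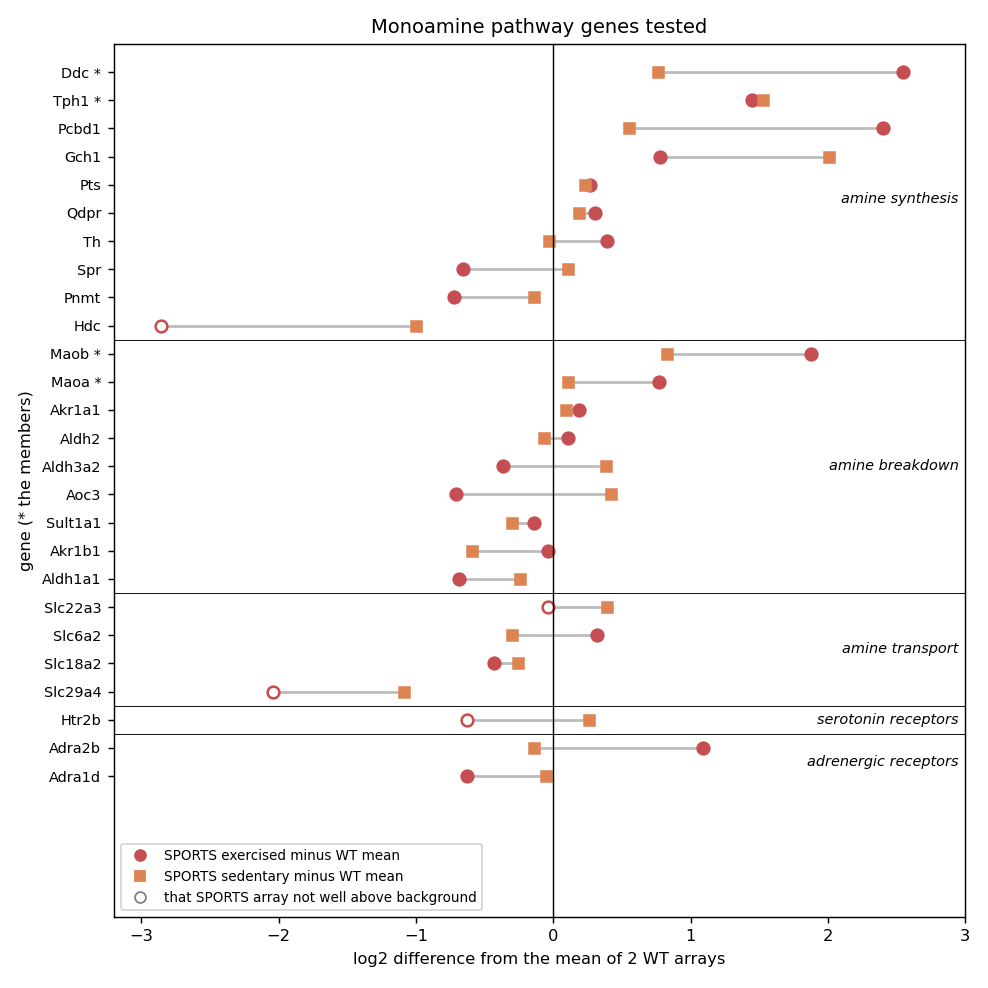
Log2 difference of the exercised SPORTS array (circles) and of the sedentary SPORTS array (squares) from the mean of the WT arrays (x axis) for 26 listed pathway genes that could be tested, by list; open symbols are SPORTS values not well above background, and asterisks mark the members. Ddc, Tph1, Pcbd1, Gch1, Maob, Maoa, Pts, Qdpr and Akr1a1 lie to the right of 0 on both SPORTS arrays. Hdc, Slc29a4, Pnmt, Slc18a2, Aldh1a1, Sult1a1, Adra1d and Akr1b1 lie to the left on both.

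Among 9 carrier genes, 4 could be tested. Slc29a4, encoding the plasma membrane monoamine transporter, was not well above background on the exercised array, was at least 2.53-fold lower there than in WT (adjusted p = 0.00466) and fell by 1.09 on the sedentary SPORTS array (adjusted p = 0.0408). Its second probe, well above background on 2 arrays, differed by only -0.14 and -0.05. Slc6a2, the noradrenaline carrier gene of sympathetic endings, rose by 0.32 on the exercised array (adjusted p = 0.0441) and differed by -0.30 on the sedentary one (adjusted p = 0.102). Slc18a2, another carrier gene tested, differed by -0.43 on the exercised and -0.26 on the sedentary array. It lay below both WT arrays on each. Slc22a3, the last carrier gene tested, differed by -0.04 and 0.39, and was not well above background on the exercised array. The serotonin carrier gene Slc6a4 was not well above background on any array. Th, Dbh and Slc6a2 are 3 of 10 markers of sympathetic nerve and Schwann cells. The summed level of these 10 was 3.56 in exercised SPORTS and 6.99 in sedentary SPORTS muscle, against 4.24 and 3.67 on the WT arrays. Mbp was the brightest on the sedentary array. The median difference from WT over the 8 tested was -0.12 in exercised SPORTS and 0.48 in sedentary SPORTS muscle.

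**Figure D4:**
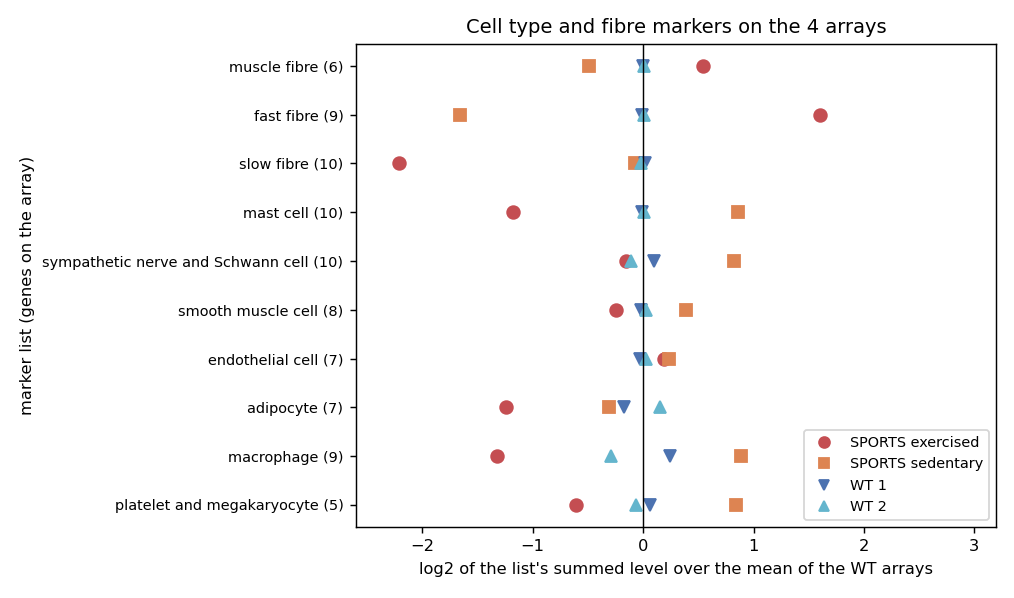
Summed level of each marker list on the 4 arrays as log2 over the mean of the WT arrays (x axis); the number of list genes on the array is in brackets. Fast fibre markers are highest and slow fibre and mast cell sums lowest on the exercised SPORTS array. Mast cell, nerve, macrophage and platelet sums are highest on the sedentary one. A sum follows the brightest markers of its list.

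Likeness of profile was measured for Maoa and Ddc, the members well above background on all 4 arrays, as the root mean square difference between profiles centred on their own mean, over 4 arrays and 7532 named genes. Nearest to Ddc were Camk2d, encoding a calcium and calmodulin dependent kinase, at 0.0575, Pcbd1 at 0.0938 and Pvr at 0.0987, and only these 3 genes lay within 0.1. Nearest to Maoa were Smim11 at 0.00501, Nol12 at 0.00749 and Slc19a2 at 0.0116, out of 388 genes within 0.1. The profiles were not scaled by the size of their differences, which were larger for Ddc. The counts therefore do not compare how common the shape of each profile was.

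**Figure D5:**
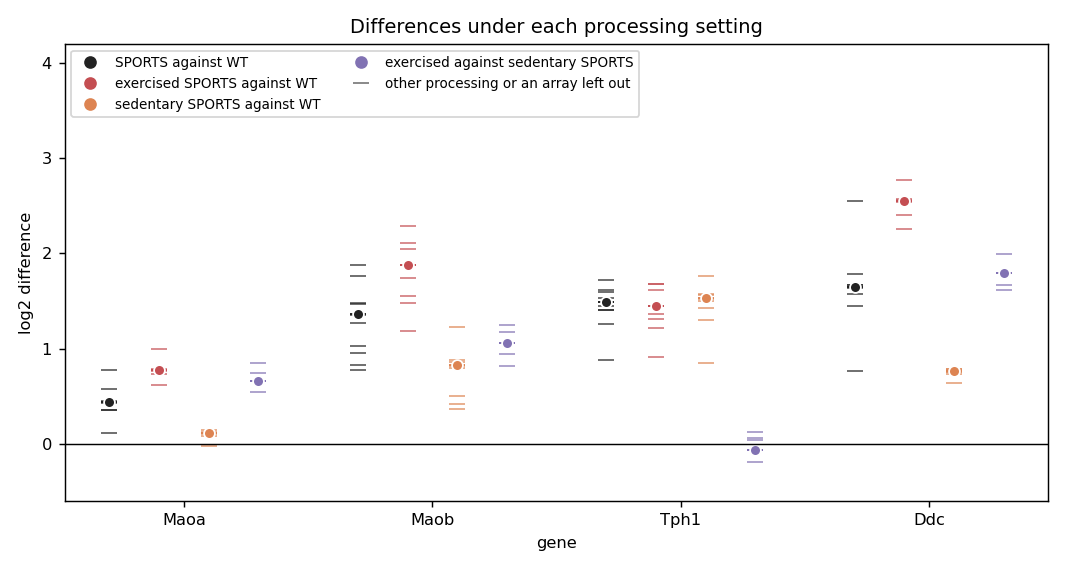
Log2 difference (y axis) of the 4 members tested in each comparison, with filled circles for the values reported and short bars for other processing or an array left out. Values for Ddc, Maob and Tph1 against WT stay above 0 throughout, Maoa on the sedentary SPORTS array lies between -0.02 and 0.14, and Tph1 between the SPORTS arrays lies on both sides of 0.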

How the data were processed

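RNA was labelled with Cy3 and hybridised to 1 one-colour Agilent array per sample. Per the file headers and the submitters' processing notes, Agilent Feature Extraction 10.7.1.1 made the deposited intensity values, with background subtraction and spatial detrending but no scaling between arrays, and all 4 arrays lay on 1 slide. The software's deposited flags for outliers and for spots well above background were used as given. The authors' deposited log2 table followed differences of the scaled values with r = 1 over 30015 probes and was centred on each probe's median. Its column medians were 0.17 (exercised SPORTS), -0.15 (sedentary SPORTS), 0.02 and -0.02 (WT).

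Control and outlier spots were left out, spots of a probe averaged, and log2 signals scaled by each array's 75th percentile. Probes with all spots flagged on any array were dropped (352 of 30367). Accessions were named through RefSeq GRCr8 (59.4% of probes), so no array coordinates are given. The brightest probe stood for a gene. Genes well above background on at least 2 arrays (13326) were fitted with limma 3.58.1 in R 4.3.3 and tested two-sided with Benjamini-Hochberg adjustment over all genes, called below 0.05. SPORTS against WT had 2 residual degrees of freedom, the 3-group fit 1. The fits were checked on simulated data, with noise of 1 spread taken from the WT pair for all 4 arrays. Changes were added equally to both SPORTS arrays. That check assumes that SPORTS arrays vary like the WT pair, so it could not test this. Members and lists were chosen with earlier results of these data known. Members were named with every probe, other pathway genes if well above background on at least 2 arrays and at least 2-fold from both WT arrays on either SPORTS array (at most 8 per comparison), and the 3 nearest profiles of Maoa and Ddc. Th, Tph2, Dbh, Pnmt, Spr, Pts, Qdpr, the Aldh and Akr genes, Aoc3, Sult1a1, Adra1d, Htr2b, Slc6a2, Slc6a4, Slc18a2 and Slc22a3 fall outside that rule. They were chosen after their values were seen. Alternatives were other values, backgrounds, scalings, filters, a variance trend and each array left out. Single values of 2 further pathway genes are not reported here.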

Additional observations from a re-analysis of the deposited data

How the results depend on the processing

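Over 14 alternatives the 4 members tested gave 184 values, of which 177 were above 0 and none of the called ones turned its sign. Arrays left out changed the pooled count most: of the 4 members, 0 to 4 were called in SPORTS against WT, with none when either WT array was left out. Without the exercised SPORTS array Ddc was called, and without the sedentary one all 4 were. Each of these fits is the comparison of the remaining SPORTS array with WT and repeats the values of the 3-group fit for that array. Over the arrays left out, the difference of SPORTS from WT ran from 0.11 to 0.77 for Maoa and 0.83 to 1.88 for Maob. It ran from 1.26 to 1.72 for Tph1 and 0.76 to 2.55 for Ddc. Normexp took the pooled value of Maob to 0.77 and of Tph1 to 0.88. With Gch1 kept in, an alternative to leaving it out after seeing the data, 5 of 24 other pathway genes rose on the exercised and 2 on the sedentary array, where the median turned to 0.03. On the exercised array 2 members were called with no filter on dim genes, where Maob (1.88) and Tph1 (1.45) had adjusted p = 0.113 and 0.0748, and 2 when genes had to be well above background on all 4 arrays, which leaves 2 members to test. On the sedentary array the count of 1 became 0 with no filter, where Ddc (0.76) had adjusted p = 0.101 and 26624 genes were tested in place of 13326. It became 2 with normexp, with a floor on dim values and with a variance trend, which each added Tph1 (0.85, 1.43 and 1.53). All genes called there numbered 836, against 2114, 1609 and 2816 under those 3, 2170 with the stricter filter and 0 with none. Between the SPORTS arrays 1 member was at least 2-fold apart with normexp, with the 75th percentile of probes detected on all arrays and with the stricter filter, where Maob lay under 2-fold or was not tested. The gap between the SPORTS arrays moved for Maoa to 0.74 with normexp, 0.85 with median scaling and 0.54 with that percentile, and for Ddc to 1.62, 1.99 and 1.67. Median scaling moved the median of all genes by 0.23 on the exercised array and that percentile by -0.14. SPORTS against WT called 1 gene of all with normexp and 1 with quantile normalization. Other causes were not tested. Htr2a got no alternative values, being below background throughout. With a WT array left out, the 3-group fit has no residual degrees of freedom and gave values without a test. A slide block was not run, with 1 slide. No paired analysis was possible because the labels give no number that pairs arrays across groups. Maob and Tph1 on WT array 1 and Htr2a are limited by signal over background.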
